A study of Mus musculus with 7 samples.

Results

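Valine tRNAs were read out as 3 anticodon pools, Val-AAC, Val-CAC and Val-TAC, and as the 13 isodecoders that make up these pools. An isodecoder is a tRNA that shares its anticodon with others and differs from them elsewhere in the body. The members were taken by name, all rows of the pool table and of the isodecoder table that name valine, and they were 3 of 52 pools and 13 of 217 isodecoders. The family itself was chosen on measured values, the RPM of the same libraries. Val-CAC-1 and Val-AAC-2 in oligodendrocytes against progenitors, and Val-CAC-1, Val-AAC-4 and Val-CAC-3 in oligodendrocytes against astrocytes, had already been singled out by their changes, as had the share of Val-CAC-1 in its pool. Those values are given as a description, without a p-value, and nothing is read from their number.

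The libraries came from mouse cells of strain 129S/SvEv grown in culture. Oligodendrocyte progenitor cells (OPCs, n = 3) were derived from epiblast stem cells and expanded with bFGF and PDGFA. Oligodendrocytes (OLs, n = 2) were obtained from OPCs in medium with noggin, IGF-1, cyclic AMP, NT3 and the thyroid hormone T3, and per the study's methods they came from a pair of the OPC replicates. Astrocytes (n = 2) were obtained from OPCs with bFGF, Hb-EGF, CNTF and BMP4. All are populations made in a dish from 1 stem cell source, and differentiated cultures can still hold undifferentiated OPCs. Only tRNAs were measured, so the labelled cell types could not be checked against marker mRNAs. Between 1339021 and 2627351 reads per library were assigned to tRNAs, with 1590312 and 1605007 in the OL libraries and at least 2344932 in the astrocyte libraries. The share of these reads outside the cytosolic tRNAs ranged from 4.98 to 6.94% in OPCs, from 3.55 to 3.90% in OLs and from 7.74 to 7.88% in astrocytes. Its part in the values below was not tested. In such bulk samples, fewer cells of a type and less RNA per cell cannot be told apart.

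Valine is encoded by the codons GUU, GUC, GUA and GUG. The adenosine at the first anticodon base of Val-AAC is deaminated to inosine, which reads GUU and GUC and, less well, GUA. Val-CAC reads GUG, and Val-TAC, written UAC in the RNA, reads GUA and can also read GUG. tRNA genes are transcribed by RNA polymerase III from promoter elements that lie within the gene, the A box and the B box. The isodecoders of a pool share the anticodon and are charged with the same amino acid.

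The RefSeq gene table for GRCm38.p6, the assembly also named mm10, lists 22 valine tRNA loci, 8 for Val-AAC, 11 for Val-CAC and 3 for Val-TAC. The names of the isodecoders in the deposited table stand for 21 gene copies, 8, 10 and 3 by anticodon. The loci are 72 to 73 nt long. On chromosome 13 there are 10 of them, 5 Val-AAC and 5 Val-CAC, and 8 of these lie between positions 23285401 and 23446214, within 161 kb. The 3 Val-TAC loci lie elsewhere, 2 on chromosome 19 (12011931 to 12012003 and 12012266 to 12012338) and 1 on chromosome X (160766110 to 160766182). In GENCODE annotation, 16 of the 22 loci are intergenic, 6 are intronic and 0 are exonic. n-TVaac1 (chr4:139430506-139430577) lies in an intron of Ubr4, a ubiquitin ligase gene, and the other 5 intronic loci lie in the lincRNA genes Gm11290 and 4930557F10Rik on chromosome 13. The tables used here do not pair RefSeq loci with isodecoders, so no locus is assigned to a level below.

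The sequence of 1 of these loci was taken from the RefSeq promoter table, since it falls in the window of a neighbouring gene, Gm46404. It is shown because it places the anticodon, by which the pools were summed, in the body, by which isodecoders are told apart. n-TVcac9 is a Val-CAC gene on the minus strand at chr13:23446142-23446214 (GRCm38.p6), intergenic and 73 nt long, given 5′ to 3′ on its own strand. The first capitals mark the CAC anticodon at positions 34 to 36 from the 5′ end, and the second mark the B box motif GTTCGANNC at positions 53 to 61.
n-TVcac9: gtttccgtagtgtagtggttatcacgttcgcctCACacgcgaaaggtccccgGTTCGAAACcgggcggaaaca
The motif, searched on both strands, is held by 277 of 32851 promoter windows of that table (0.843%). A locus was shown only if it held this motif and had its anticodon at positions 34 to 36. The match was thus a condition for showing n-TVcac9, and nothing is read from it beside that share. It describes these letters and does not show that the gene was transcribed.

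Levels are in RPM, reads scaled to a common total of cytosolic and mitochondrial tRNA reads in each library. Val-TAC was the most abundant pool, at 15924, 13883 and 17441 RPM in OPC replicates 1 to 3, 17391 and 19257 RPM in OL replicates 1 and 2, and 20976 and 16065 RPM in astrocyte replicates 1 and 2. Val-CAC was at 14878, 11877 and 15247 RPM in OPCs, 12513 and 14131 RPM in OLs, and 19953 and 14731 RPM in astrocytes. Val-AAC was the least abundant, at 4311, 3456 and 4963 RPM in OPCs, 3260 and 3667 RPM in OLs, and 6352 and 4286 RPM in astrocytes. OPC replicate 2 was the lowest OPC library and astrocyte replicate 1 the highest of all libraries in each of the pools. OLs overlapped with OPCs in all 3 pools, where 48.1% of the 52 pools did not, as did astrocytes, where 32.7% did not. Against astrocytes, both OL libraries were lower for Val-AAC and Val-CAC, 2 of the 3 pools, and they overlapped for Val-TAC. Of all 52 pools, 9.62% were lower without overlap. These 2 pools hold Val-AAC-4, Val-CAC-1 and Val-CAC-3, which had been singled out in this comparison, so nothing is read from the count.

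The threshold, an adjusted p of 0.01 in limma, was passed by 0 of the 3 valine pools in each comparison, as by 0 of all 52 pools (0%). Without adjustment, 13 of the 52 (25%) had a p under 0.05 when OLs were compared with OPCs, 6 (11.5%) when astrocytes were, and 8 (15.4%) between OLs and astrocytes, and 0 of these were valine pools. From OPCs to OLs, Val-TAC changed by 0.22 on the log2 scale (SE 0.11, limma adjusted p 0.237), Val-CAC by -0.07 (SE 0.14, limma adjusted p 0.726) and Val-AAC by -0.28 (SE 0.18, limma adjusted p 0.314). The sign for Val-CAC turned to 0.00044 without OPC replicate 3 and to 0.022 without OL replicate 1. In astrocytes against OPCs the changes were 0.23, 0.30 and 0.31 in the same order, with limma adjusted p-values of 0.489, 0.449 and 0.489. In OLs against astrocytes they were 0.00, -0.37 and -0.59, with limma adjusted p-values of 0.999, 0.327 and 0.258. The median change over all 52 pools was 0.12, 0.00 and 0.11.

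The 3 pools together held 33994 ± 4328 RPM in the 3 OPC libraries, 35109 ± 2752 RPM in the OL libraries (n = 2) and 41181 ± 8625 RPM in the astrocyte libraries (n = 2; errors are SD). This was 3.62, 3.65 and 4.47% of the listed cytosolic tRNA. OLs were 1116 RPM above OPCs (exact permutation p 1.0), and the difference was -306 RPM under median-of-ratios scaling. Without OL replicate 2 or OPC replicate 2 the difference was also negative, at -830 and -1273 RPM. Astrocytes were 7188 RPM above OPCs (exact permutation p 0.6), and 1089 RPM above them without astrocyte replicate 1. The OL mean minus the astrocyte mean was -6072 RPM (exact permutation p 0.667), and 27.2 RPM without astrocyte replicate 1.

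The division of valine tRNA between the anticodons was then compared. Val-TAC made up 45.4, 47.5 and 46.3% of valine RPM in OPCs, 52.4 and 52.0% in OLs, and 44.4 and 45.8% in astrocytes. Both OL libraries lay above every other library. The OL mean was 5.81 percentage points above OPCs (exact permutation p 0.2, 10 splits) and 7.13 points above astrocytes (exact permutation p 0.333, 6 splits). Val-AAC made up 12.4% ± 0.690 (SD, n = 3) of valine RPM in OPCs, 9.86% in OLs and 12.8% in astrocytes, and Val-CAC 41.2% ± 1.04 (SD, n = 3), 37.9% and 42.1%. The log2 ratio of Val-CAC to Val-AAC was 1.73 in OPCs, 1.94 in OLs and 1.72 in astrocytes, 0.21 higher in OLs than in OPCs (exact permutation p 0.2). The smallest p that these two-sided tests allow is 0.2 with 10 splits and 0.333 with 6, so none could reach 0.05. Over the 9 tests the adjusted values were 0.72 to 1.0 (exact permutation, Benjamini-Hochberg). Val-AAC-2, Val-AAC-4, Val-CAC-1 and Val-CAC-3, singled out before, made up 14.9% of valine RPM in OPCs, 7.45% in OLs and 16.4% in astrocytes. The shares and the ratio are not independent of these members, so nothing is read from where the OL libraries lay.

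Within the pools, levels ran from 17277 RPM for Val-TAC-1 to 0.296 RPM for Val-AAC-6 as means over the 7 libraries. Val-TAC-1 was 100% of its pool, so its level is that of Val-TAC. In OPCs the order after Val-TAC-1 was Val-CAC-2 (10965 ± 1353 RPM, SD, n = 3), Val-AAC-5 (2010 ± 315), Val-CAC-3 (1844 ± 334), Val-AAC-4 (1554 ± 344), Val-CAC-1 (1097 ± 172) and Val-AAC-2 (583 ± 62.7). The libraries of Val-AAC-5, Val-CAC-3, Val-AAC-4 and Val-CAC-1 overlapped from each to the next, and the others stood apart from their neighbours. In OLs, Val-AAC-5 no longer overlapped Val-CAC-3, which was the next below it. In astrocytes Val-CAC-3, Val-AAC-5 and Val-AAC-4 overlapped in that order.

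**Figure D1:**
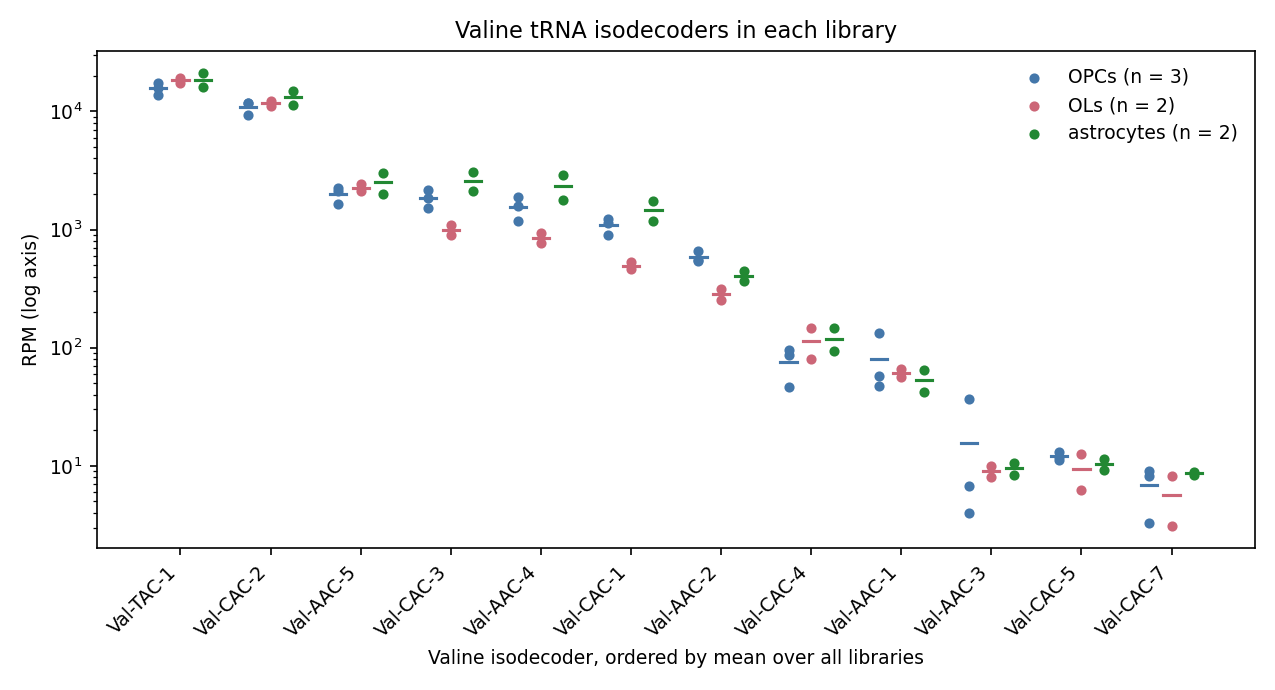
RPM of 12 valine isodecoders on a log axis, with 1 point per library and a bar at the mean of each cell type (OPCs n = 3, OLs n = 2, astrocytes n = 2); Val-AAC-6, at 0 in 5 libraries, is not drawn. For Val-CAC-3, Val-AAC-4, Val-CAC-1 and Val-AAC-2 both OL points lie below all OPC and astrocyte points.

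The order of levels was not that of the gene copies in the names. Val-CAC-2 stands for 5 copies and had a mean of 2360 RPM per copy over the 7 libraries, against 2229 RPM for the single-copy Val-AAC-5 and 1814 RPM for the single-copy Val-CAC-3. Val-TAC-1, with 3 copies, had 5759 RPM per copy. Val-AAC-2, with 2 copies, had 224 RPM per copy, and the single-copy Val-CAC-7 had 7.02 RPM. Isodecoders of an anticodon are close in sequence, so how reads were divided between them, and how completely each was reverse transcribed, are limits on these levels that were not tested.

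Between OLs and OPCs, 4 isodecoders of intermediate abundance were lower in both OL libraries than in every OPC library, Val-CAC-1, Val-CAC-3, Val-AAC-4 and Val-AAC-2. Val-CAC-1 was at 1145, 906 and 1240 RPM in OPC replicates 1 to 3 and at 460 and 528 RPM in OL replicates 1 and 2. Val-CAC-3, of the same pool, was at 1850, 1507 and 2175 RPM in OPCs and 890 and 1090 RPM in OLs. Both OL libraries lay below every OPC library for each of them. Val-AAC-4 was at 1593, 1192 and 1877 RPM in OPCs and 763 and 933 RPM in OLs. Val-AAC-2 was at 541, 554 and 655 RPM in OPCs and 317 and 255 RPM in OLs. Here too the OL libraries lay below the OPC libraries without overlap. This was so for 4 of 12 valine isodecoders, where 22.9% of all 192 were lower without overlap, and no excess is read from it. The OL means were 0.450, 0.537, 0.546 and 0.491 times the OPC means for Val-CAC-1, Val-CAC-3, Val-AAC-4 and Val-AAC-2. The fitted log2 changes were -1.14 (SE 0.17), -0.89 (SE 0.18), -0.86 (SE 0.20) and -1.03 (SE 0.16) in that order. Val-CAC-3 and Val-AAC-4 did not pass 0.01 (limma adjusted p 0.0132 and 0.0253).

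The most abundant member of each pool overlapped between OLs and OPCs. Val-CAC-2 was at 11768, 9403 and 11724 RPM in OPCs and 11062 and 12355 RPM in OLs. It changed by 0.10 on the log2 scale (SE 0.12, limma adjusted p 0.562). When OPC replicate 2 was left out this was -0.0068. Val-AAC-5 was at 2113, 1657 and 2260 RPM in OPCs and 2113 and 2406 RPM in OLs, and changed by 0.18 (SE 0.15, limma adjusted p 0.428). Val-TAC-1 changed by 0.22 (SE 0.11, limma adjusted p 0.194 in the isodecoder fit). In RPM, the 4 isodecoders named above summed to 5078 ± 895 in OPCs (SD, n = 3) and 2619 ± 266 in OLs (SD, n = 2), a difference of -2460. The sum of Val-AAC-5, Val-CAC-2 and Val-TAC-1 was 3568 RPM higher, at 32292 against 28724 RPM. Grouping the 4 was done after their values were seen and carries no test.

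When OLs were compared with OPCs, Val-CAC-1 and Val-AAC-2 fell past the limma threshold, 2 of the 12 valine isodecoders tested, where 11 of all 192 passed (5.73%), 9 of them lower (4.69%). Both were among the members singled out beforehand, so nothing is read from this count. The number of valine isodecoders past the threshold was 0 without OPC replicate 1, where 4 of all 192 passed. It was 3 without OPC replicate 2 or OPC replicate 3, where 9 and 29 of all 192 passed. Leaving out an OL library leaves 1 in its group, so no count is given there and the number is not known to hold. The median log2 change was -0.25 over the 12 valine isodecoders and 0.09 over all 192. Members singled out by their changes are among the 12, so nothing is read from the difference between these medians.

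**Figure D2:**
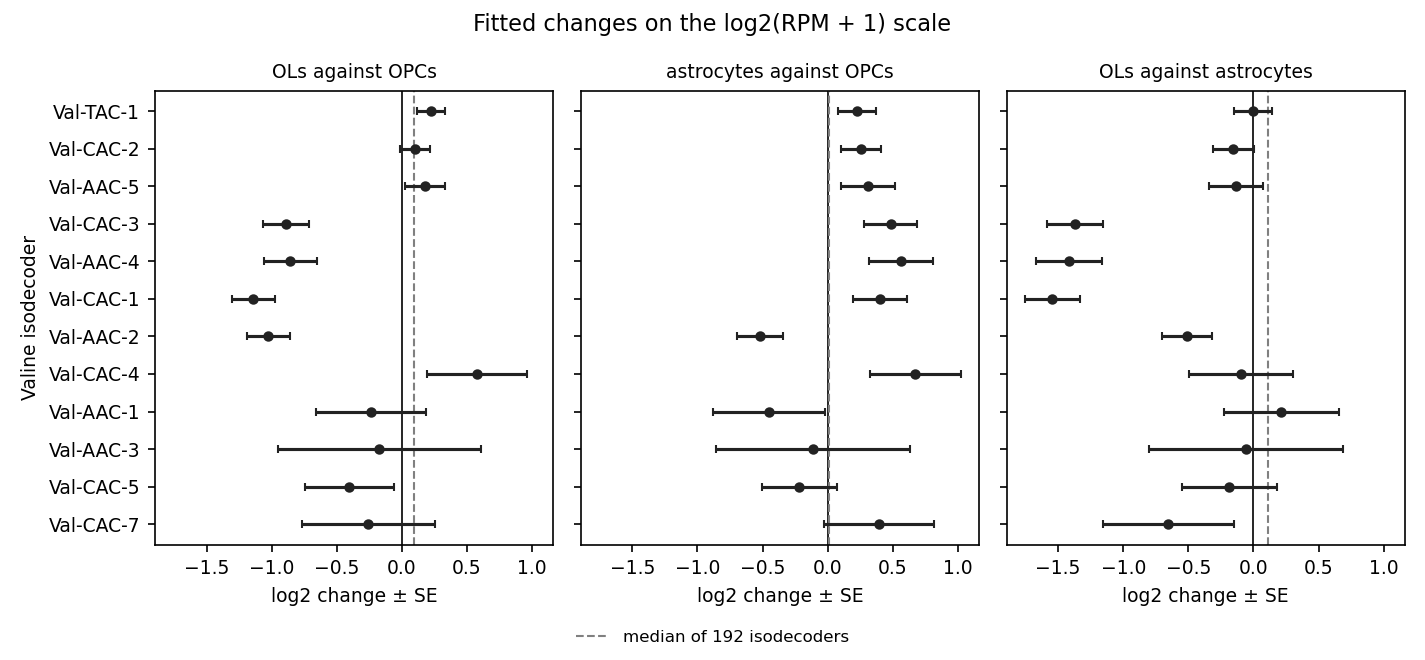
Fitted log2 change ± SE of 12 valine isodecoders on the log2(RPM + 1) scale in the 3 comparisons, with a dashed line at the median of all 192 isodecoders. Val-CAC-3, Val-AAC-4 and Val-CAC-1 lie left of 0 in both comparisons of OLs and right of 0 in astrocytes against OPCs, whereas Val-AAC-2 lies left of 0 in all 3.

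Astrocytes were made from the same progenitors. Val-CAC-1 was at 1748 and 1184 RPM in astrocyte replicates 1 and 2, Val-CAC-3 at 3059 and 2128 RPM, and Val-AAC-4 at 2870 and 1774 RPM. For these 3 the second astrocyte library fell within the range of the OPC libraries and the first lay above it. Their log2 changes against OPCs were 0.40 (SE 0.21, limma adjusted p 0.301), 0.48 (SE 0.20, limma adjusted p 0.221) and 0.56 (SE 0.25, limma adjusted p 0.235). Val-AAC-2 was at 368 and 447 RPM, below all OPC libraries, and changed by -0.52 (SE 0.18, limma adjusted p 0.141). Val-AAC-2 was the 1 valine isodecoder of 12 whose astrocyte libraries did not overlap with OPCs, where 39.6% of all 192 did not.

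None of the 12 valine isodecoders passed 0.01 in astrocytes against OPCs by limma, nor did any of the 192 (0%). Without adjustment 40 of the 192 (20.8%) had a p under 0.05, among them Val-AAC-2 and Val-CAC-3. Without OPC replicate 3, Val-AAC-4 (log2 change 0.71, limma adjusted p 0.000576) and Val-CAC-3 (0.61, limma adjusted p 0.00322) passed, where 17 of all 192 did. Under median-of-ratios scaling Val-AAC-4 passed (0.59, limma adjusted p 0.00834), where 17 of all 192 did. Without astrocyte replicate 1 the changes of Val-AAC-4, Val-CAC-3 and Val-CAC-1 were 0.22, 0.22 and 0.12. Astrocyte replicate 1 was above replicate 2 by 1.62, 1.44 and 1.48 times for these, and by 1.32 times for Val-CAC-2. For Val-AAC-2 it was 0.823 times replicate 2. The changes of Val-CAC-2, Val-AAC-5 and Val-TAC-1 were 0.26, 0.31 and 0.23, with limma adjusted p-values of 0.361, 0.378 and 0.378.

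OLs and astrocytes were compared directly, in a fit of all 7 libraries. The log2 change was -1.54 (SE 0.21) for Val-CAC-1, -1.42 (SE 0.25) for Val-AAC-4 and -1.37 (SE 0.21) for Val-CAC-3. The OL libraries of all 3 lay below both astrocyte libraries. Val-AAC-2 was also lower without overlap, by -0.51 on the log2 scale (SE 0.19, limma adjusted p 0.122), as was the rare Val-CAC-7. This makes 5 of 12, where 19.8% of all 192 were lower without overlap. Since 3 of the 5 had been singled out in this comparison, no excess is read from it. Of 12 valine isodecoders 3 passed 0.01, where 12 of all 192 passed (6.25%), and nothing is read from this count because the same 3 had been singled out in this comparison. The number was 3 without OPC replicate 1, 2 or 3, where 9, 8 and 20 of all 192 passed. Leaving out an OL or astrocyte library leaves 1 in its group. No count is given there, and the number is not known to hold. The changes of Val-CAC-2 and Val-AAC-5 were -0.15 and -0.13 (limma adjusted p 0.587 and 0.726), and 0.048 and 0.16 without astrocyte replicate 1.

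The other isodecoders of the family were rare. Val-CAC-4 was at 94.8, 46.4 and 86.3 RPM in OPCs, 79.9 and 148 RPM in OLs, and 145 and 92.9 RPM in astrocytes. Val-AAC-1 was at 57.5, 47.7 and 134 RPM in OPCs, with OPC replicate 3 the highest of all libraries, and at 41.9 to 65.4 RPM in the other groups. Val-AAC-3 was at 36.6 RPM in OPC replicate 3, or 89 reads, and at 3.97 to 10.7 RPM in every other library. Val-CAC-5 ranged from 6.23 to 13.2 RPM and Val-CAC-7 from 3.12 to 8.96 RPM. Val-AAC-6 had 1 and 2 reads in OPC replicates 1 and 2 and 0 reads elsewhere, where a count of 0 allows up to 3 reads, or 1.14 to 1.89 RPM in those libraries, so a difference was not detectable at this depth. These limits cover counting error only. Of the 5 rare isodecoders tested, 0 passed the threshold in any comparison. Their lowest limma adjusted p-values were 0.327, 0.301 and 0.487 in OLs against OPCs, astrocytes against OPCs and OLs against astrocytes, and 0 had an unadjusted p under 0.05.

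The share of an isodecoder in its pool is free of the level of the pool. Val-AAC-5 made up 49.0, 47.9 and 45.5% of the Val-AAC pool in OPCs, 64.8 and 65.6% in OLs, and 47.8 and 47.0% in astrocytes. Val-AAC-4 made up 36.9, 34.5 and 37.8% in OPCs, 23.4 and 25.4% in OLs, and 45.2 and 41.4% in astrocytes. The mean shares of these 2 isodecoders were 47.4 and 43.3% in astrocytes and 65.2 and 24.4% in OLs. Val-AAC-2 made up 12.5, 16.0 and 13.2% in OPCs, 9.72 and 6.97% in OLs, and 5.79 and 10.4% in astrocytes, where OLs and astrocytes overlapped and both lay below OPCs.

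In the Val-CAC pool, Val-CAC-2 made up 79.1, 79.2 and 76.9% in OPCs, 88.4 and 87.4% in OLs, and 75.1 and 76.8% in astrocytes. Val-CAC-3 made up 12.4, 12.7 and 14.3% in OPCs, 7.12 and 7.72% in OLs, and 15.3 and 14.4% in astrocytes. Val-CAC-1 made up 7.70, 7.63 and 8.13% in OPCs, 3.67 and 3.74% in OLs, and 8.76 and 8.04% in astrocytes. The OL libraries stood apart from all other libraries for these 3 shares and for those of Val-AAC-4 and Val-AAC-5. In all, 7 of 11 valine shares did not overlap between OLs and OPCs, where 56% of 184 did not, and 7 of 11 between OLs and astrocytes, where 59.8% did not.

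**Figure D3:**
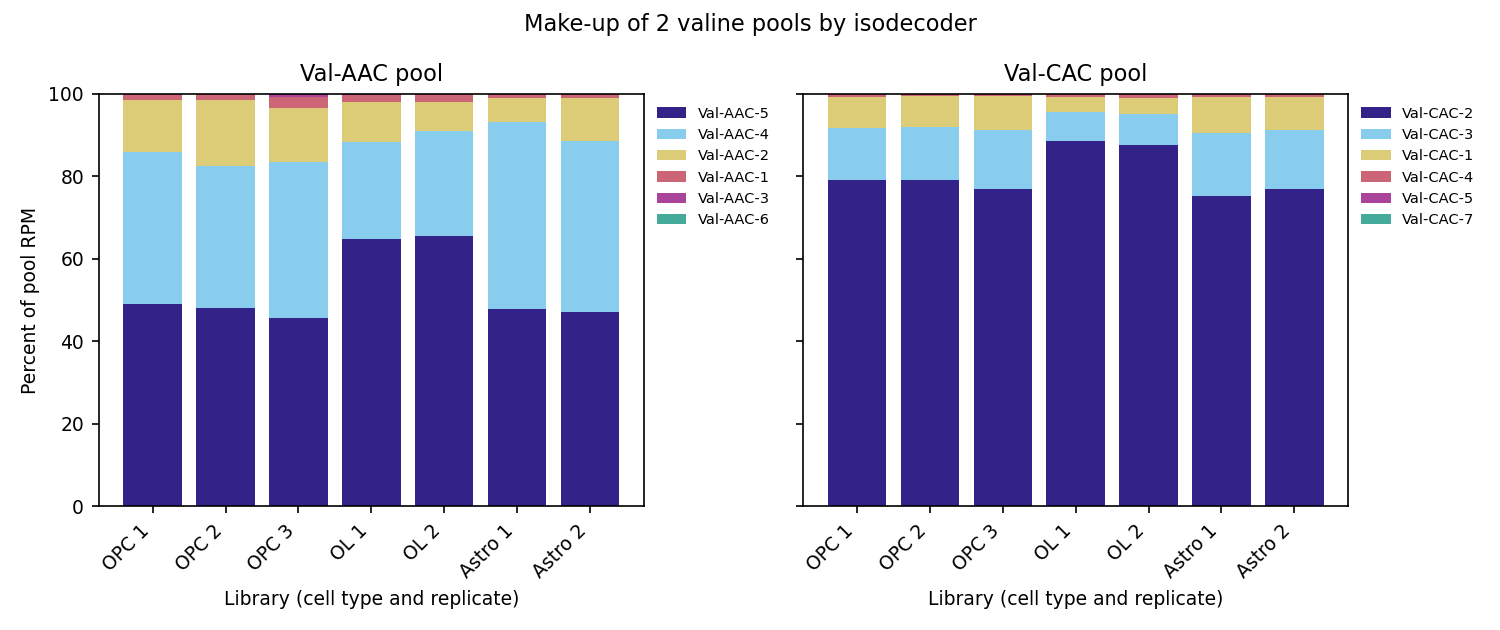
Percent of pool RPM taken by each isodecoder of Val-AAC and of Val-CAC, with 1 stacked bar for each of the 7 libraries. The darkest segment, Val-AAC-5 or Val-CAC-2, is tallest in the 2 OL libraries, at 64.8 and 65.6% and at 88.4 and 87.4%.

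On the log2 scale the share of Val-CAC-1 changed by -1.07 (SE 0.042) in OLs against OPCs, and 1 of 11 valine shares passed the limma threshold, where 4 of 184 shares did (2.17%). This share had been singled out before, so nothing is read from this count. It was 0 without OPC replicate 1 or OPC replicate 2, where 0 of all 184 passed. It was 1 without OPC replicate 3, where 5 of all 184 passed. No count is given for fits that leave 1 OL library. In astrocytes against OPCs 0 of 11 valine shares and 0 of 184 shares passed by limma (0%), and 2 of 11 and 43 of 184 (23.4%) had an unadjusted p under 0.05. The astrocyte change was 0.25 (SE 0.07, limma adjusted p 0.143) for the share of Val-AAC-4 and -0.83 (SE 0.31, limma adjusted p 0.224) for that of Val-AAC-2. In OLs against astrocytes the shares of Val-CAC-1, Val-CAC-3, Val-AAC-4 and Val-AAC-5 passed, 4 of 11, where 7 of 184 passed (3.8%). The first 3 isodecoders had been singled out by level in this comparison, and shares of a pool are tied to each other. So nothing is read from this count. It was 0 without OPC replicate 1 or OPC replicate 2, where 0 of 184 passed, and 4 without OPC replicate 3, where 8 passed. With the OPC libraries left out of the fit it was 0, where 0 of 184 passed. No count is given for fits that leave 1 OL or astrocyte library.

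Ratios between isodecoders within a library do not depend on how libraries were scaled, and they are given as a description. Val-AAC-4 was 75.4, 72.0 and 83.0% of Val-AAC-5 in OPCs, 36.1 and 38.8% in OLs, and 94.5 and 88.1% in astrocytes. Val-CAC-1 was 9.73, 9.64 and 10.6% of Val-CAC-2 in OPCs, 4.16 and 4.28% in OLs, and 11.7 and 10.5% in astrocytes. Val-CAC-3 was 15.7, 16.0 and 18.6% of Val-CAC-2 in OPCs, 8.05 and 8.83% in OLs, and 20.4 and 18.8% in astrocytes. In each of these ratios the OL libraries were the lowest of the 7.

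Some pairs of members, within and across anticodons, held a ratio over the 7 libraries that varied less. Val-AAC-4 was 79.1 to 93.8% of Val-CAC-3, a range of 1.19 times, and Val-CAC-1 was 48.5 to 61.9% of Val-CAC-3, a range of 1.28 times. Val-AAC-4, Val-CAC-1 and Val-CAC-3 had been singled out together in OLs against astrocytes, so nothing is read from these narrow ranges. Val-AAC-5 was 17.6 to 20.3% of Val-CAC-2 (1.15 times), and Val-TAC-1 was 135 to 157% of Val-CAC-2 (1.16 times). Val-AAC-2 moved apart from Val-CAC-3, at 12.0 to 36.7% of it, a range of 3.06 times. It was 29.2 to 36.7% in OPCs, 35.6 and 23.4% in OLs, and 12.0 and 21.0% in astrocytes.

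**Figure D4:**
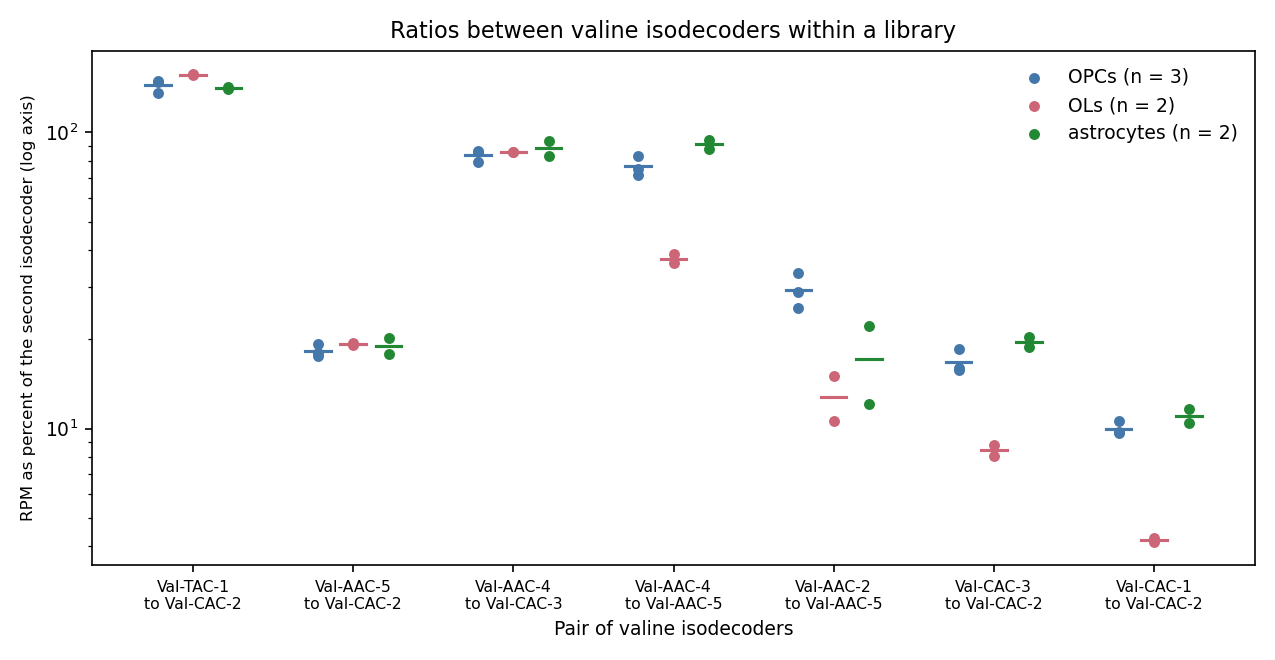
RPM of an isodecoder as a percent of another in the same library, on a log axis, with 1 point per library and a bar at the mean of each cell type (OPCs n = 3, OLs n = 2, astrocytes n = 2). The ratios to Val-CAC-2 of Val-TAC-1 and Val-AAC-5 span 1.16 and 1.15 times over the 7 libraries, whereas in the ratio of Val-AAC-4 to Val-AAC-5 the OL points, at 36.1 and 38.8%, lie below all others.

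The profile over the 7 libraries that was most like that of Val-CAC-1, among 191 other isodecoders, was that of Val-CAC-3, followed by Val-AAC-4 and then Cys-GCA-8, a cysteine isodecoder. The root mean square difference between the centred log2 profiles was 0.11, 0.14 and 0.19, against a median of 0.73 over the 191. Val-CAC-1, Val-CAC-3 and Val-AAC-4 had been singled out together in OLs against astrocytes, so nothing is read from their closeness. Among 47 pools of other amino acids, Val-AAC was most like Cys-GCA (0.12) and Lys-TTT (0.22), Val-CAC most like Lys-TTT (0.14) and Phe-GAA (0.19), and Val-TAC most like Thr-AGT (0.09) and Pro-TGG (0.11). These differences are over libraries of 3 cell types and carry no test.

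Related pools were set beside the valine pools. Of the 7 pools of other amino acids with adenosine at the first anticodon base, 0 passed a limma adjusted p of 0.01 in any comparison, and 2, 1 and 0 had an unadjusted p under 0.05 in OLs against OPCs, astrocytes against OPCs and OLs against astrocytes. Their median log2 changes were 0.25, -0.06 and 0.14, where the medians of all 52 pools were 0.12, 0.00 and 0.11. In OLs against OPCs, Ile-AAT changed by 0.38 (SE 0.08, limma adjusted p 0.0609) and Pro-AGG by -0.29 (SE 0.14, limma adjusted p 0.237), which bracket the -0.28 of Val-AAC. Of 7 measured pools for leucine and isoleucine, the other branched-chain amino acids, 0 passed by limma, 3, 2 and 1 had an unadjusted p under 0.05, and the median changes were 0.22, 0.04 and 0.16. Leu-TAA changed by -0.21 (SE 0.03, limma adjusted p 0.0428) in OLs against OPCs.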

How the data were processed

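QuantM-seq libraries of total RNA (3 OPC, 2 OL, 2 astrocyte) were grouped by the deposited labels. The authors trimmed reads with cutadapt, mapped them with bowtie2 to mature mm10 tRNAs collapsed by sequence, counted with featureCounts, and deposited RPM, scaled to all cytosolic and mitochondrial tRNA reads. Read totals were recovered from the RPM step of 1 read (tolerance 0.001 reads). The authors' DESeq2 tables hold mean counts, fold changes and p-values for OPCs and OLs and were not used. The limma package (3.58.1, R 4.3.3) was applied to log2(RPM + 1) of 52 pools, of 192 isodecoders averaging 1 RPM or more, and of 184 shares, with a variance trend except for shares. OPCs were fitted with OLs or astrocytes alone, whereas OLs against astrocytes used all 7 libraries. Benjamini-Hochberg adjustment ran over each whole table, with 0.01 as threshold. Fold changes on this scale understate those of low tRNAs. Two-sided exact permutation tests (scipy 1.17.1) covered 3 single values. The scripts were tested on simulated data. Members and lists were chosen with earlier results of these data known. All valine rows were named, and single changes are given for the 7 isodecoders averaging 100 RPM or more and summarised for the other 5.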

Additional observations from a re-analysis of the deposited data

Results flagged for a closer look

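In the fit of all 7 libraries, the OL change from OPCs minus the astrocyte change is the same contrast as OLs against astrocytes above. For 3 valine isodecoders it passed the limma threshold, where 12 of all 192 passed, and it adds no further test. The OL change minus the astrocyte change was -1.54 on the log2 scale for Val-CAC-1, -1.42 for Val-AAC-4 and -1.37 for Val-CAC-3. Each was lower in 2 of 2 OL libraries than in both astrocyte libraries. In shares of the pool the difference was -1.18 for Val-CAC-1, -1.01 for Val-CAC-3, -0.82 for Val-AAC-4 and 0.46 for Val-AAC-5. The first 3 had been singled out by the same comparison in earlier results of these data, and the shares of the same isodecoders rest on the same libraries, so the values are a description.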

How the results depend on the processing

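Of 171 alternatives to 18 summary values, 130 were labelled the same, 34 moved a count of passing members and 7 turned a sign. For counts of passing members, the same meant within the limits set. For the differences with permutation tests it meant the same sign, whatever the size. The summed valine RPM in astrocytes against OPCs, for example, went from 7188 to 1089 without astrocyte replicate 1 and was labelled the same. Of 650 alternatives for 48 values of single members, 545 kept direction and side of the threshold, 64 lost the call, 26 gained it and 15 turned the sign. No alternative brought a valine pool past the threshold. In OLs against OPCs, 2 valine isodecoders passed the threshold, and 11 of all 192. The number was 1 with a pseudocount of 10 (9 of 192) and 0 without the filter on low values (1 of 217). It was 4 under median-of-ratios scaling (22 of 192) and 0 without the variance trend (2 of 192). When 1 OPC library was left out it was 0 to 3 (4 to 29 of 192). In OLs against astrocytes, 3 valine isodecoders and 12 of all 192 passed. The number was 0 without the filter (0 of 217) and 0 without the trend (0 of 192). It was 3 when 1 OPC library was left out (8 to 20 of 192). In astrocytes against OPCs (0, and 0 of all 192) the number was 1 under median-of-ratios scaling (17 of 192). It was 0 to 2 when 1 OPC library was left out (0 to 17 of 192). For shares in OLs against OPCs, 1 valine share and 4 of all 184 passed. The number was 3 with a pseudocount of 10 (12 of 184) and 3 with a minimum mean of 10 RPM (12 of 151). It was 4 with a variance trend (10 of 184) and 4 in the fit of all 7 libraries (17 of 184). When 1 OPC library was left out it was 0 to 1 (0 to 5 of 184). For shares in OLs against astrocytes, 4 valine shares and 7 of all 184 passed. The number was 0 with those libraries alone (0 of 184). When 1 OPC library was left out it was 0 to 4 (0 to 8 of 184). The cause of these shifts was not tested. A fit that leaves 1 library in a group assumes that it varies like the other groups, so the number passing in it is not given.

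The sign of the summed valine RPM in OLs against OPCs (1116) turned to -306 under median-of-ratios scaling, and ranged from -1273 to 3062 when 1 library was left out. In OLs against astrocytes the sum ranged from -12171 to 27.2, and the log2 ratio of Val-CAC to Val-AAC in astrocytes against OPCs from -0.078 to 0.052. Ranges of log2 changes that cross 0 when 1 library was left out were -0.18 to 0.022 for Val-CAC and -0.0068 to 0.18 for Val-CAC-2 in OLs against OPCs. In OLs against astrocytes they were -0.20 to 0.19 for Val-TAC and Val-TAC-1, -0.43 to 0.16 for Val-AAC-5, -0.36 to 0.048 for Val-CAC-2 and -0.34 to 0.51 for the share of Val-AAC-2. In astrocytes against OPCs the range was -0.032 to 0.021 for the share of Val-AAC-5.

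Replicate numbers do not pair the libraries in the sources used here. Deviations of same-numbered libraries correlated at 0.118 and -0.111 for OPCs with OLs and at -0.0746 and 0.343 for OPCs with astrocytes. With the replicate number as a block, OPC replicate 3 carries no weight in the changes. The number of valine isodecoders past the threshold was then 5 in OLs against OPCs, where 45 of all 192 passed. In astrocytes against OPCs it was 3, where 24 of all 192 passed. The number of valine shares was 0 in OLs against OPCs and in OLs against astrocytes, where 0 of all 184 passed. The change of the Val-CAC pool in OLs against OPCs was 0.00044. Between OLs and astrocytes the correlation was -0.294. Crossing the astrocyte numbers in the block, chosen after seeing the data, gave 3 isodecoders, where 18 of all 192 passed. It gave 0 shares, where 0 of all 184 passed.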
